A study of Mus musculus with 45 samples.

Results

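The data described here are the 10 vehicle libraries that follow mouse forelimb buds from 24 to 48 h in organ culture, 5 libraries at 24 h and 5 at 48 h out of 45 in the series, chosen by their labels alone. Forelimb buds of CD1 mouse embryos, an outbred stock, were taken on gestation day 13, and the forelimbs of each embryo were pooled. Limbs of both sexes were cultured together in a BGJb-based medium with ascorbic acid and gentamycin. All 10 libraries received dimethyl sulfoxide (DMSO), the vehicle, and no bisphenol A (BPA), and carry no named mutation or transgene. The other groups of the series received 10 or 50 µM BPA, or were taken at 3 h. No label ties the 5 libraries of a group to separate litters or days of culture. The p-values therefore cover the spread from library to library, part of which may be technical. Each library held 17939775 to 24770345 counts at 24 h and 18276684 to 22586897 at 48 h.

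A limb bud of this age holds cartilage models of the bones, made by chondrocytes under the transcription factor Sox9. In endochondral ossification the chondrocytes in the middle of each model enlarge (hypertrophy), change their collagen, mineralise their matrix and are replaced by bone from osteoblasts of the surrounding sheath. Around the cartilage lie tendon and joint cells, muscle, vessels, nerve sheath, and a covering of epidermis. The comparison asks how this tissue changed during its second day in vehicle culture. The tissue label was checked for limb mesenchyme only, by its general transcription factor Prrx1. This gene stood at 478 CPM on average at 24 h and at 440 CPM at 48 h (CPM are reads of a gene scaled to the library size). Whether the limbs were forelimbs was not checked.

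Of 16940 tested genes 1432 were called (8.45%): 921 rose between 24 and 48 h (5.44%) and 511 fell (3.02%), with edgeR's quasi-likelihood test and an adjusted p below 0.05. A gene past that threshold is said to have risen or fallen, or to have been called. CPM here use library sizes scaled by TMM, and fold changes compare 48 h with 24 h. The median log2 fold change over all tested genes was -0.01. Most changes were small: 157 genes rose and 43 fell by 2-fold or more. The libraries of the groups did not overlap in CPM for 844 genes that were higher (4.98%) and 570 that were lower (3.36%) at 48 h. The authors' deposited table called 1924 genes for the same comparison, 1206 higher and 718 lower, and 1427 of these were among the 1432 called here.

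**Figure D1:**
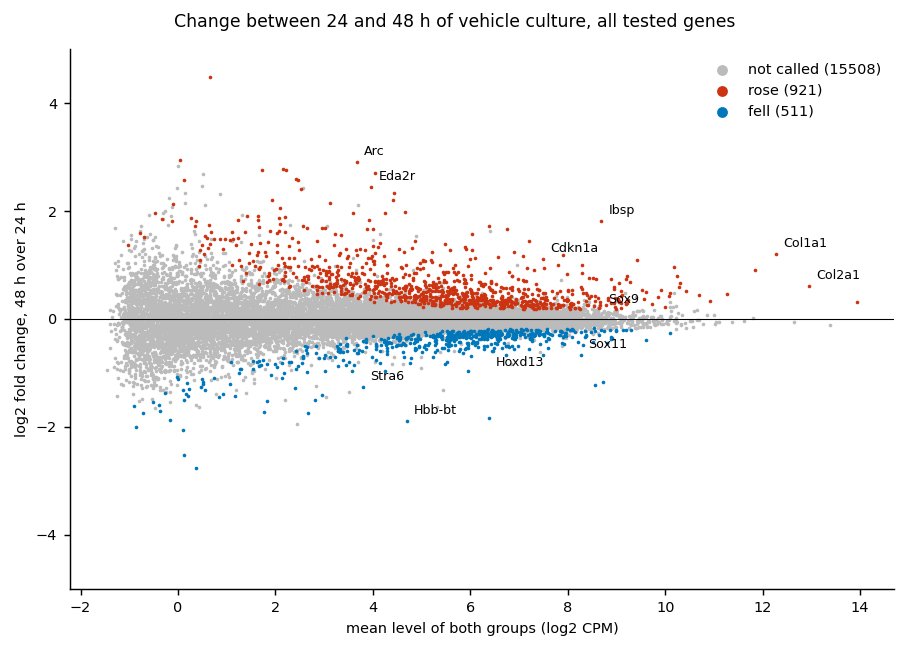
The log2 fold change of 48 h over 24 h in vehicle (vertical axis) is plotted against the mean level of both groups in log2 CPM (horizontal axis) for 16940 tested genes, with 921 that rose in red, 511 that fell in blue and the rest in grey. Col1a1 and Col2a1, on the right, lie above 0, while Hbb-bt, a globin, lies at -1.90.

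The libraries differed in epidermal transcripts in a way the time points do not explain. The 20 epidermal markers took 0.0119 to 0.194% of the counts at 24 h and 0.0075 to 0.126% at 48 h, and Krt14, the keratin of basal epidermis, ranged from 15.02 to 437 CPM at 24 h and from 2.99 to 164 CPM at 48 h. Replicates 4 and 5 of 24 h and replicate 4 of 48 h had a mean of under 3 log2 CPM over these markers. Without these 3 libraries 377 genes rose in place of 921, and 106 fell in place of 511. With the epidermal level as a covariate 2055 were called (12.1% of those tested), 1292 that rose (7.63%) and 763 that fell (4.5%). The part of epidermal content in single results was not tested further, and for the lists described here the counts without the 3 libraries are given where they differ by over 1.5 times.

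Genes of the cartilage matrix rose together. Of 24 measured members of the list, 17 rose and 0 fell, with a median log2 fold change of 0.63 against -0.01 for all genes. In the 7 libraries with more epidermal transcript 11 rose, at a median of 0.58. Col2a1, the main collagen of cartilage, stood at 5797, 6928, 6090, 6344 and 6399 CPM in the libraries of 24 h. At 48 h its levels were 10225, 11487, 8149, 9645 and 8517 CPM, all above every library of 24 h. The rise was 1.52-fold (log2 0.61 ± 0.09 SE, adjusted p = 0.000559). Acan, the large aggregating proteoglycan, rose 1.67-fold from 439 to 732 CPM, and Comp, a matrix protein of cartilage and tendon, 2.26-fold from 147 to 332 CPM. Matn1 and Matn2, members of the matrilin family of matrix adaptors, rose 0.80 and 0.67 on the log2 scale. The steepest rise of the list was that of Ucma, a small matrix protein of cartilage, from 1.32 to 4.95 CPM (3.76-fold, with adjusted p = 0.0527 in the 7 libraries with more epidermal transcript). Clec3a, a cartilage lectin outside the list, was among the 20 largest rises. Hapln1, which links proteoglycans to hyaluronan, had 485.5 and 676 CPM and was not called. Because these are whole limb buds, a change in the number of cells of a type and a change in RNA per cell cannot be told apart.

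Of 16 measured regulators of cartilage 1 rose, Arid5a, a transcriptional cofactor, a share near the 5.44% of all genes, and the median was 0.07. The count was 2 without replicate 3 or 5 of 48 h or with the epidermal covariate, and 3 with DESeq2. Sox9 had 370, 444, 374, 439 and 406 CPM at 24 h and 382, 359, 345, 428 and 371 CPM at 48 h, groups that overlap widely (log2 -0.11 ± 0.07, adjusted p = 0.425). Wwp2, whose gene lies over the miR-140 of cartilage, and Trps1, a zinc finger factor of growth plate cartilage, were not called either, at -0.06 and -0.07.

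In the list of prehypertrophic and hypertrophic chondrocytes 8 of 21 measured members rose and 0 fell, with a median of 0.55. In the 7 libraries with more epidermal transcript 8 rose as well, at a median of 0.33. Those that rose included Col10a1, Ibsp, Spp1, Alpl and Sp7, and Ihh, Pth1r, Runx2 and Vegfa were not called. Col10a1, the collagen of hypertrophic cartilage, had 55.5, 96.1, 45.2, 31.9 and 29.3 CPM at 24 h and 163, 256, 102, 112 and 187 CPM at 48 h. The lowest library of 48 h stood just above the highest of 24 h, and the spread between replicates was wide at both times (3.19-fold, log2 1.67 ± 0.31 SE, adjusted p = 0.0033). Ihh, the hedgehog ligand of prehypertrophic cells, had 42.9 and 39.7 CPM (log2 -0.11 ± 0.10). Pth1r, the receptor for parathyroid hormone-related protein, had 132 and 137 CPM. Runx2, the transcription factor of hypertrophy and bone, had 57.5 and 65.9 CPM (adjusted p = 0.239), and Vegfa, the vessel growth factor of hypertrophic cartilage, had 103 and 108 CPM. Mmp13, the collagenase of the last hypertrophic cells, was listed between 0 and 1.82 CPM at 24 h and between 0.826 and 2.81 CPM at 48 h, and was not called (adjusted p = 0.144).

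Mineralisation genes rose in 10 of 15 measured cases with 0 that fell (1 with the epidermal covariate), at a median of 0.70. Ibsp, the bone sialoprotein that binds mineral, stood at 219, 247, 196, 135 and 118 CPM at 24 h. Its levels at 48 h were 729, 837, 475, 370 and 789 CPM, with every library above those of 24 h (3.50-fold, log2 1.81 ± 0.23 SE, adjusted p = 0.000274). Spp1 (osteopontin), another acidic mineral-binding protein, had 7.11, 19.4, 13.4, 25.5 and 12.6 CPM at 24 h and 38.1, 57.0, 33.8, 40.8 and 44.3 CPM at 48 h. It rose 2.73-fold (adjusted p = 0.0021) with no overlap. Both genes lie on the plus strand in a cluster of mineral-binding protein genes on chromosome 5 of mm10, Ibsp at chr5:104299171-104311469 and Spp1 at chr5:104435118-104441050. Alpl, the phosphatase that frees phosphate for mineral, rose 1.92-fold from 34.2 to 65.7 CPM. Mgp, an inhibitor of mineralisation, rose 1.93-fold, and Ank, which exports the inhibitor pyrophosphate, rose 0.54 on the log2 scale, so members that favour and members that oppose mineral were both among those that rose. Phex, a protease of phosphate balance, and Car12, a carbonic anhydrase, were not called, at -0.15 and -0.34.

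The 250 bases before the start sites of Spp1 and Col10a1 are shown because these genes rose while Runx2, whose protein can bind promoters of bone genes, was not called. Capitals mark the RUNX core TGTGGT, searched on both strands, in which form it reads ACCACA on the printed strand of Spp1. The sequences are those of RefSeq on GRCm38.p6, 5′ to 3′, for Spp1 chr5:104434861-104435110 and for Col10a1 chr10:34389731-34389980, both on the plus strand.
Spp1: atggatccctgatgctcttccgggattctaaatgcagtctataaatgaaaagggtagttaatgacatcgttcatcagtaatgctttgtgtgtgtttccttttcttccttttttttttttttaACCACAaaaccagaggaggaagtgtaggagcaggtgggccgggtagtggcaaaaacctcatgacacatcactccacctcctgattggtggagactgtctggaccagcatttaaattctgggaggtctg
Col10a1: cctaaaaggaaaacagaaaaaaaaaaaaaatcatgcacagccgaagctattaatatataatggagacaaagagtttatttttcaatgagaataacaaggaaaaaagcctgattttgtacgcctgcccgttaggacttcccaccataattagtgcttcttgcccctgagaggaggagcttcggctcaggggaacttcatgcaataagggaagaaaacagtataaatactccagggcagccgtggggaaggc
The core lies 128 bases before the start of Spp1, and Col10a1 does not hold these letters in this window. Of the 14 genes of the mineralisation and hypertrophic lists that rose, 10 were found in the promoter table and 4 of these held the core, Spp1 and, named after their values were seen, Dmp1, Enpp1 and Slc20a1. Over all 27025 genes of the table the share was 15.9%. A match is a description of the sequence only.

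Genes of bone and of fibrous connective tissue rose too. In the osteoblast list 12 of 22 measured members rose and 0 fell (1 with DESeq2 or with the epidermal covariate), with a median of 0.64. The lists share members, so their counts are not independent. Sp7, Alpl, Ibsp and Spp1, for example, also count in the hypertrophic or mineralisation list. Col1a1 and Col1a2 count again among the fibrous collagens, and Col14a1 is in the fibrous collagen and tendon lists. Among 32 measured fibrous collagens and their processing enzymes, 25 rose and 0 fell, with a median of 0.48. Col1a1, the main chain of the collagen of bone, tendon and skin, had 2980, 3134, 3058, 2810 and 2940 CPM at 24 h. At 48 h it had 6808, 7869, 6527, 5782 and 7293 CPM, every library far above those of 24 h. The rise of 2.30-fold (log2 1.20 ± 0.08 SE, adjusted p = 6.62e-07) was among the 10 of smallest p. Col1a2, the partner chain, rose 1.86-fold (adjusted p = 8.38e-06). Per length, in the deposited FPKM, Col1a1 was below Col2a1 at 24 h, with 454 ± 19.1 against 682 ± 46.9 (SD, n = 5). At 48 h Col1a1 stood at 1051 ± 121 FPKM and Col2a1 at 1046 ± 143, which did not differ beyond their spread. Col5a3, a minor fibril chain, rose most of the list, from 3.20 to 14.3 CPM (4.48-fold), and Sparc, a collagen-binding protein of osteoblasts, rose 0.96 on the log2 scale. Sp7, the osteoblast factor that acts after Runx2, rose 1.60-fold from 25.8 to 41.3 CPM with groups that do not overlap. Cthrc1, a secreted collagen triple helix protein, had 178 and 207 CPM and was not called.

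Tendon genes rose in 16 of 23 measured cases and fell in 2 (1 in the 7 libraries with more epidermal transcript), at a median of 0.57. Tnmd, the membrane protein of mature tendon, had 38.0, 43.1, 41.3, 37.0 and 32.998 CPM at 24 h and 79.3, 78.4, 86.3, 99.8 and 121 CPM at 48 h, a rise of 2.42-fold with a clear gap between the groups (adjusted p = 1.66e-05). Cilp, a matrix protein of cartilage and tendon, rose 4.59-fold, and Bgn, a small proteoglycan, 2.14-fold. Col14a1 and, from outside the list, Col22a1, collagens that bind to fibril surfaces and to tissue junctions, rose 1.93- and 2.62-fold. Scx, the transcription factor of tendon progenitors, rose 1.49-fold (adjusted p = 0.0239), but its groups overlap and the call was lost in 4 of the 10 fits that leave out a library. Among matrix proteases and their inhibitors 7 of 29 rose and 1 fell, beside 5.44% and 3.02% of all genes. The counts were 11 and 2 without replicate 1 of 24 h or with the epidermal covariate. The largest change there was that of the inhibitor Timp1, at 9.88, 8.73, 5.26, 7.07 and 5.17 CPM at 24 h and 40.0, 45.3, 17.8, 27.9 and 50.1 CPM at 48 h. Timp1 rose 5.04-fold (adjusted p = 8.91e-05). Mmp14, a membrane-bound collagenase, rose 1.30-fold.

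Of 32 measured genes of the TGF-beta and BMP family 8 rose and 2 fell, beside 5.44% and 3.02% of all genes. The median was 0.09. In the 7 libraries with more epidermal transcript 4 rose and 0 fell, at a median of 0.04, and 1 fell without replicate 2, 4 or 5 of 24 h, or replicate 2, 3, 4 or 5 of 48 h. Tgfb1, a ligand, rose 1.78-fold from 31.8 to 56.5 CPM, and Inhba, the activin subunit, 1.82-fold. Ltbp2, which belongs to the proteins that hold latent TGF-beta in the matrix, rose 2.16-fold (adjusted p = 6.74e-06), and Fst, an activin inhibitor, rose 0.36 on the log2 scale. Tgfb2, another ligand, fell by 0.27 on the log2 scale. Id3, a target of BMP signalling, had 101 and 89.2 CPM and was not called.

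**Figure D2:**
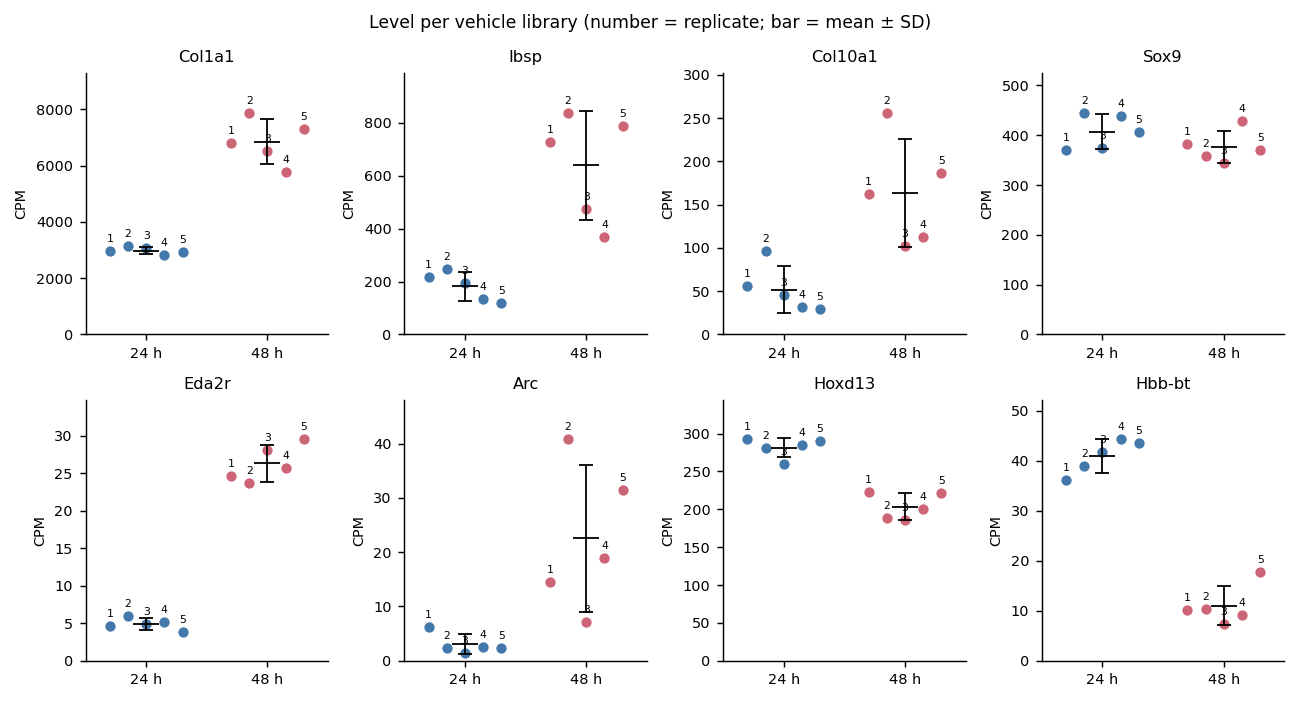
CPM of 8 genes (vertical axes, from 0) in each vehicle library at 24 h (blue) and 48 h (red), with the replicate number at each point and the mean ± SD as a bar. Col1a1, Ibsp, Col10a1, Eda2r and Arc are higher in every library of 48 h, Hoxd13 and Hbb-bt are lower in every one, and the Sox9 groups overlap.

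Some genes of limb patterning fell. Of 35 measured members 11 fell and 0 rose, with a median of -0.40, and 21 fell with the epidermal covariate against 6 in the 7 libraries with more epidermal transcript. Msx1, a homeobox factor of undifferentiated limb mesenchyme, had 79.8, 46.2, 60.9, 54.7 and 51.3 CPM at 24 h and 37.9, 37.3, 35.8, 26.01 and 32.5 CPM at 48 h, 1.73-fold lower with no overlap (adjusted p = 0.0021). Lmx1b of dorsal and Hand2 of posterior identity were 1.42- and 1.48-fold lower, and Wnt5a, the ligand of distal outgrowth, 1.35-fold lower. Prrx1 and Twist1, general factors of limb mesenchyme, were not called, at -0.12 and -0.30.

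Of 9 posterior Hox genes 7 fell and 0 rose, at a median of -0.37. Without replicate 5 of 24 h 4 fell, and 2 fell in the 7 libraries with more epidermal transcript. Hoxd13, the digit gene at the end of its cluster, had 292, 280, 260, 285 and 290 CPM at 24 h and 223, 188, 185, 200 and 221 CPM at 48 h. The groups did not overlap and the level was 1.38-fold lower at 48 h (adjusted p = 0.000426). Hoxd12, its neighbour on chromosome 2, was 1.52-fold lower and Hoxa13 on chromosome 6 was 1.34-fold lower. Hoxa11 of the forearm segment had 38.7 and 36.1 CPM and was not called.

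In the joint interzone list, the cells between future bones, 5 of 20 measured members fell and 2 rose, beside 3.02% and 5.44% of all genes. The median was -0.10. The count of 5 became 2 without replicate 4 of 24 h, 3 without replicate 5 of 48 h and 0 in the 7 libraries with more epidermal transcript, where 1 rose. Gdf5, the ligand that marks the interzone, had 62.4, 57.2, 41.9, 63.1 and 52.7 CPM at 24 h and 43.0, 39.3, 33.3, 40.0 and 30.7 CPM at 48 h. It was 1.49-fold lower (adjusted p = 0.00619), with replicate 3 of 24 h inside the range of 48 h. Erg, a transcription factor of joint cartilage, fell by 0.28 on the log2 scale. Sfrp5, a secreted Wnt inhibitor of the list, went the other way and rose 3.20-fold from 3.86 to 12.3 CPM.

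The signalling pathways that pattern the limb were read from 4 lists, beside the 5.44% of all tested genes that rose and the 3.02% that fell. Of 14 measured hedgehog genes 1 fell, Gli3, a repressor of the pathway (1.32-fold lower). The count was 2 without replicate 3 of 24 h or of 48 h or with the epidermal covariate, and 0 in the 7 libraries with more epidermal transcript. Ptch1, the receptor and standard target, had 236 and 252 CPM (adjusted p = 0.525). In the Wnt list 2 of 33 rose and 2 fell, and Axin2, its standard target, had 50.3 and 39.1 CPM and was not called. In the Wnt list 5 rose without replicate 1 of 24 h, and 1 without replicate 1 or 2 of 48 h. Without replicate 2, 4 or 5 of 24 h, or replicate 2, 3, 4 or 5 of 48 h, 1 fell. With the epidermal covariate 4 rose and 4 fell, with DESeq2 4 rose, and in the 7 libraries with more epidermal transcript 1 rose and 1 fell. The FGF list had 3 of 21 that rose, among them the inhibitor Spry4, and the count was 0 without replicate 3 or 4 of 24 h, or replicate 4 or 5 of 48 h, and in the 7 libraries with more epidermal transcript. It was 1 without replicate 2 or 5 of 24 h, or replicate 1 or 2 of 48 h, and 5 with DESeq2 or with the epidermal covariate. While 0 of the FGF list fell, 2 fell without replicate 1 of 24 h and 1 fell without replicate 3 or 4 of 48 h, with DESeq2 or with the epidermal covariate. Of 19 retinoic acid genes 2 rose and 3 fell. The count of 2 was 1 without replicate 2, 3, 4 or 5 of 24 h, or replicate 1, 3 or 5 of 48 h, and 4 with the epidermal covariate. Stra6, the cell receptor that takes up retinol, had 26.6, 16.3, 19.96, 19.6 and 16.3 CPM at 24 h and 10.1, 10.7, 8.26, 5.68 and 6.36 CPM at 48 h (2.41-fold lower, adjusted p = 0.000628). Cyp26a1, which degrades retinoic acid and is one of its targets, was 2.84-fold lower at 1.62 and 0.566 CPM, while Rbp4, the carrier of retinol outside the cell, rose 1.91-fold. In the 7 libraries with more epidermal transcript 1 of the list rose and 1 fell.

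Targets of the tumour suppressor p53, a transcription factor stabilised by DNA damage and other stress, formed a list with a large share of risen genes. Of 31 measured members 22 rose and 0 fell, with a median of 0.76, and 16 rose in the 7 libraries with more epidermal transcript. Eda2r, a receptor of the tumour necrosis factor family and a p53 target, had 4.59, 5.97, 4.86, 5.10 and 3.79 CPM at 24 h. At 48 h it had 24.6, 23.7, 28.1, 25.7 and 29.5 CPM, a tight group far above that of 24 h. The rise was 5.42-fold (log2 2.44 ± 0.13 SE, adjusted p = 5.22e-08), which with Gas6 was the smallest adjusted p of the comparison. Cdkn1a, the cell cycle inhibitor p21, had 130, 102, 103, 108 and 128 CPM at 24 h and 253, 237, 217, 231 and 288 CPM at 48 h, 2.15-fold higher with no overlap (adjusted p = 7.6e-06). Ccng1, a cyclin of the p53 feedback loop, rose 2.24-fold, and Zmat3, an RNA-binding target, 1.81-fold. Mdm2, the ligase that degrades p53, rose less, 1.24-fold from 90.9 to 112 CPM (adjusted p = 0.0162). Apaf1, the adaptor of apoptotic caspases, and Plk2, a kinase, had log2 fold changes of 0.19 and -0.14 and were not called.

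Of 30 measured mitosis genes 1 rose and 0 fell, at a median of 0.09, and of 35 replication genes 2 rose and 0 fell, beside 5.44% of all genes that rose. The mitosis count was 0 without replicate 1, 2, 4 or 5 of 24 h, or replicate 2, 3, 4 or 5 of 48 h, and 2 without replicate 3 of 24 h or with DESeq2. The replication count was 1 without replicate 2, 4 or 5 of 24 h, or replicate 2, 3, 4 or 5 of 48 h. Both counts were 0 in the 7 libraries with more epidermal transcript, where the mitosis median was 0.04. Mki67, a protein of dividing cells, had 161, 190, 197, 175 and 169 CPM at 24 h and 180, 182, 205, 222 and 183 CPM at 48 h, overlapping groups with an adjusted p of 0.367. Top2a, the topoisomerase of chromosome separation, had 204 and 227 CPM. Rrm2, the nucleotide reductase of S phase, rose 1.26-fold. Among 9 measured inhibitors of the cycle Cdkn2c rose besides Cdkn1a, by 1.79-fold, while Cdkn1c, the inhibitor of growth plate cartilage, had 1593 and 1448 CPM and was not called. Of these inhibitors 1 fell without replicate 1 of 24 h.

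Immediate early genes, which respond quickly to growth factors and other stimuli, held several of the 20 largest rises. Of 33 measured members 16 rose and 0 fell, with a median of 0.51. The count was 20 without replicate 1 of 24 h and 10 without replicate 3 or without replicate 5 of 24 h. It was 11 without replicate 4 of 24 h or replicate 2 of 48 h, and 9 in the 7 libraries with more epidermal transcript. Arc, a gene of neuronal activity that is also induced in other cells, had 6.20, 2.43, 1.48, 2.57 and 2.36 CPM at 24 h and 14.5, 40.8, 7.10, 19.0 and 31.5 CPM at 48 h. Every library of 48 h was above those of 24 h, over a range in which replicate 2 was highest and replicate 3 lowest (7.53-fold, log2 2.91 ± 0.44 SE, adjusted p = 0.000808). Egr1, Egr2 and Egr3, zinc finger factors of the same family, rose 2.73-, 3.93- and 6.48-fold. In all 3, as for Arc, replicate 2 was the highest and replicate 3 the lowest library of 48 h. Fos, the AP-1 subunit, had 14.9, 11.5, 5.94, 8.23 and 8.10 CPM at 24 h and 17.5, 64.3, 10.5, 15.8 and 20.4 CPM at 48 h, so that replicate 2 of 48 h stood apart. Its rise of 2.64-fold (adjusted p = 0.0486) was lost in 7 of the 10 fits that leave out a library. Klf2 and Klf4, Krüppel-like factors, rose 1.84- and 1.52-fold with less spread. Jun, the partner of Fos, was not called, at 135 and 133 CPM.

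The 250 bases before a start site of Egr2 on the plus strand (RefSeq, GRCm38.p6, chr10:67537316-67537565) are shown. Of the immediate early genes that rose and were found in the promoter table, Egr2 alone held a CArG box, the site of serum response factor. Capitals mark the box, searched on both strands.
Egr2: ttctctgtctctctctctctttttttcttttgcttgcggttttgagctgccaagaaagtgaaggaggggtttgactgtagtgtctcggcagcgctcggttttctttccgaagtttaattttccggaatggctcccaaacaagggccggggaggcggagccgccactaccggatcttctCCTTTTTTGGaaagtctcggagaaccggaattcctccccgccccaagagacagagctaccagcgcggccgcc
The box lies 72 bases before this start site. Egr2 has other listed start sites. The window at chr10:67537619-67537868, not printed, holds a CArG box of other letters, and that at chr10:67535249-67535498 holds none. Of the 16 list members that rose 11 were in the promoter table and 1 held a CArG box in this window, against 1.62% of 27025 genes. Of the 17 that were not called 13 were in the table and 2 held one, Dusp5 and Zfp36, which are named here after their values were seen. A box further from the start would not be seen in this window.

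Inflammatory genes rose in 5 of 25 measured cases and 0 fell (1 with the epidermal covariate), with a median of 0.46. Ccl2, the chemokine that attracts monocytes, had 1.06, 1.33, 0.585, 1.04 and 1.56 CPM at 24 h and 9.51, 10.0, 3.80, 6.08 and 9.35 CPM at 48 h, a rise of 6.94-fold with no overlap (adjusted p = 7.58e-05). Ptgs2, the inducible enzyme of prostaglandin synthesis, rose 6.05-fold, Lif, a cytokine of the interleukin 6 family, 5.31-fold, and Icam1, an adhesion molecule, 3.18-fold. For Ptgs2 the 48 h libraries ran from 3.19 to 13.1 CPM with replicate 3 lowest, as for Ccl2. Nfkbia, the feedback inhibitor of NF-kappaB, had 52.7 and 46.4 CPM and Cxcl12, a constitutive chemokine, 147 and 166 CPM, and neither was called. Il1rl1, the interleukin 33 receptor, and C4b, a complement component, both among the 20 largest rises, rose 6.75- and 6.78-fold from means near 1 CPM. Of 20 interferon-induced genes 1 rose, Ifi27, a small membrane protein, a share near the 5.44% of all genes that rose. The count was 2 without replicate 1 of 24 h or with DESeq2 and 0 in the 7 libraries with more epidermal transcript.

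Transcripts of blood fell. Of 9 measured erythroid genes 8 fell, with a median of -1.64, which is the value of Hba-a2, the member not called. The 8 that fell had log2 fold changes from -1.90 (Hbb-bt) to -0.97 (Hba-x). With 1 library left out the median ran from -1.24 (without replicate 1 of 24 h) to -1.74 (without replicate 2 of 24 h). The summed share of the counts of 15 erythroid genes, those under the filter on low counts included, went from 0.147 ± 0.0142% to 0.0593 ± 0.0129% (SD, n = 5; exact permutation test over libraries, two-sided, p = 0.00794, the smallest that 252 splits allow, 0.0147 adjusted over 13 marker lists). Hbb-bt, an adult beta globin, had 36.2, 38.9, 41.8, 44.3 and 43.5 CPM at 24 h and 10.2, 10.4, 7.43, 9.12 and 17.6 CPM at 48 h, 3.72-fold lower with a wide gap. The embryonic globin Hbb-y was 2.23-fold lower and Alas2, the heme synthesis enzyme of red cells, 3.34-fold lower. Hba-a2 is a near-identical copy of Hba-a1 (2.35-fold lower) and was listed between 0 and 123 CPM with no order by time, so its value is uncertain.

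Macrophage genes rose in 8 of 19 measured cases, and in 4 in the 7 libraries with more epidermal transcript. Without replicate 2 of 48 h 1 fell. The share of the counts of 20 macrophage genes, with no filter on low counts, rose from 0.0390 ± 0.00268% to 0.0569 ± 0.00626% (exact permutation p = 0.00794, adjusted 0.0147). Gpnmb, a membrane glycoprotein of macrophages, had 29.7, 44.1, 28.5, 32.7 and 38.4 CPM at 24 h and 68.3, 107, 95.9, 63.8 and 89.0 CPM at 48 h, 2.45-fold higher. Lyz2, the macrophage lysozyme, rose 2.19-fold and C1qa, a complement chain of tissue macrophages, 1.47-fold. Csf1r, the receptor that defines the lineage, had 22.2 and 24.6 CPM and was not called (adjusted p = 0.532). Lysosomal genes, in part shared with that list, rose in 8 of 25 cases, among them the protease Ctsd at 1.43-fold, beside 5.44% of all genes. Of 8 measured osteoclast genes 2 rose, Ctsk, the collagen-degrading protease (1.51-fold), and Atp6v0d2 of the proton pump, beside 5.44% of all genes that rose. The count was 1 without replicate 5 of 48 h. The summed share of 12 osteoclast genes was 0.0299 ± 0.00307% at 24 h and 0.032 ± 0.00153% at 48 h (exact permutation p = 0.206). Acp5, the phosphatase of mature osteoclasts, had 5.98 and 6.85 CPM.

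Some muscle genes rose. Of 28 measured sarcomere genes 7 rose and 0 fell, with a median of 0.39. Apart from the test of a minimum fold of 1.5, where it was 0, the count lay between 4 and 19. It was 4 without replicate 2 of 24 h, or replicate 4 or 5 of 48 h, or in the 7 libraries with more epidermal transcript. It was 15 with the epidermal covariate and 19 with the replicate number as a block. Tnni2 and Tnnt3, troponins of fast fibres, rose 1.66- and 1.63-fold, and Acta1, the skeletal actin, 1.46-fold with overlapping groups. The summed share of 29 sarcomere genes was 0.696 ± 0.148% at 24 h and 0.851 ± 0.151% at 48 h (exact permutation p = 0.135). Of 20 myogenic regulators 1 fell, Msc, a repressor of myogenesis (1.51-fold lower), beside 3.02% of all genes that fell. The count was 4 without replicate 1 of 24 h, 2 with DESeq2 or with the epidermal covariate and 0 in the 7 libraries with more epidermal transcript. Myog, the factor of fusing muscle cells, had 190 and 194 CPM.

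Endothelial genes fell in 3 of 18 cases, beside 3.02% of all genes that fell, at a median of -0.08. In the 7 libraries with more epidermal transcript 1 fell. The summed share of 18 endothelial genes was 0.0417 ± 0.003% at 24 h and 0.0379 ± 0.00636% at 48 h (exact permutation p = 0.278). Aplnr, the apelin receptor of sprouting and venous endothelium, had 10.0, 10.9, 11.3, 14.3 and 10.1 CPM at 24 h and 5.59, 4.39, 3.52, 4.96 and 2.85 CPM at 48 h, 2.66-fold lower, and Tek, the angiopoietin receptor, was 1.62-fold lower. Pecam1 and Cdh5, which mark endothelium in general, had 54.5 and 52.0 CPM and 78.4 and 80.3 CPM and were not called. Schwann and neural markers had 2 of 19 that rose (1 in the 7 libraries with more epidermal transcript), beside 5.44% of all genes. Their median was -0.11. S100b was among those that rose, and Sox10, at 7.58 and 5.91 CPM, was not called. Of 20 epidermal genes 1 fell, the simple keratin Krt18, beside 3.02% of all genes that fell. The count was 0 without replicate 1 or 4 of 24 h, replicate 2, 3, 4 or 5 of 48 h, or all 3 libraries of low epidermal content, and 1 rose without replicate 1 of 24 h. The summed epidermal share was 0.0759 ± 0.0800% at 24 h and 0.0743 ± 0.0493% at 48 h (exact permutation p = 0.944). Of 11 measured adipogenic genes 2 rose and 1 fell, beside 5.44% and 3.02% of all genes. Those that rose were Dlk1, a preadipocyte and mesenchymal factor, and Lpl, the lipoprotein lipase. Zfp423, a transcription factor of preadipocytes, fell. The count that rose was 1 without replicate 5 of 48 h, and 1 rose and 0 fell in the 7 libraries with more epidermal transcript. The summed share of 14 adipogenic genes went from 0.134 ± 0.00998% to 0.181 ± 0.0111% (exact permutation p = 0.00794, adjusted 0.0147). Dlk1 took most of it, with 994 and 1502 CPM, and the 13 other genes had 0.0332 ± 0.00372% at 24 h and 0.0332 ± 0.00159% at 48 h (SD, n = 5).

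**Figure D3:**
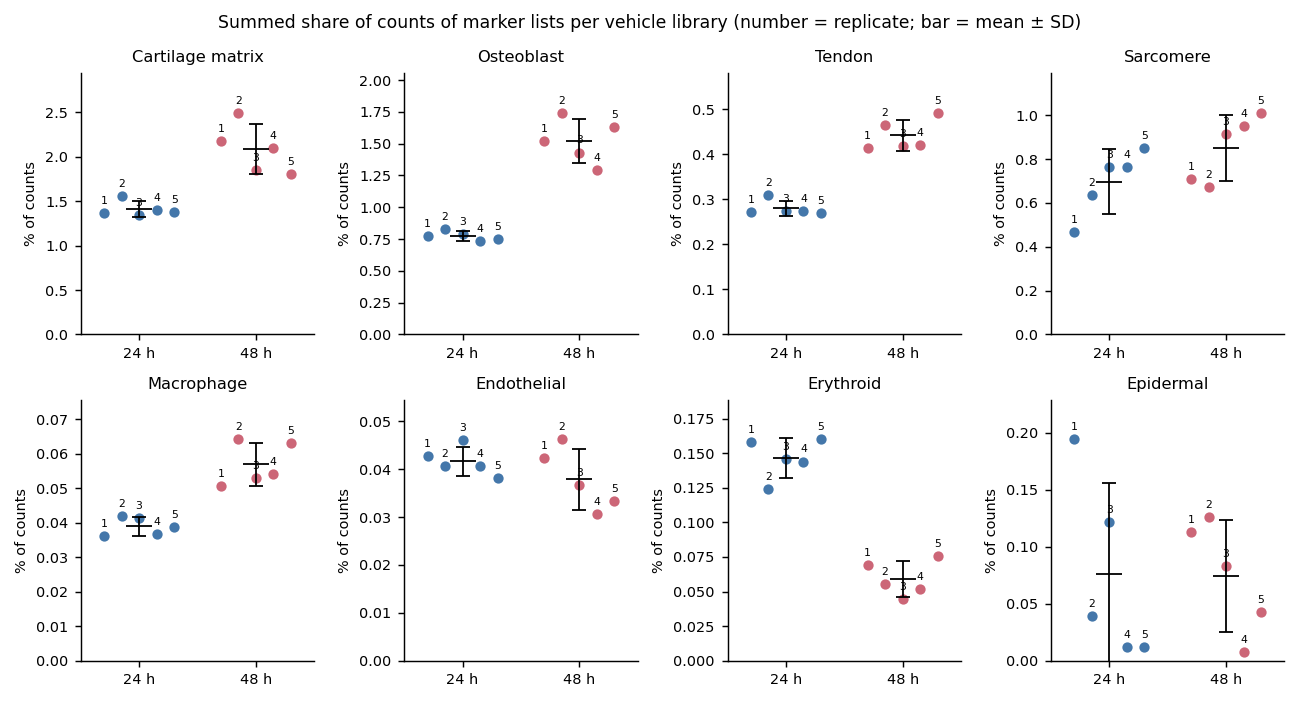
Share of all counts, in percent (vertical axes, from 0), taken by 8 marker lists in each vehicle library at 24 h (blue) and 48 h (red), with the replicate number at each point and the mean ± SD as a bar. Cartilage matrix, osteoblast, tendon and macrophage shares are higher and the erythroid share lower in every library of 48 h, while the sarcomere, endothelial and epidermal groups overlap (the lower bar of the epidermal list at 24 h runs below the axis).

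Cholesterol synthesis genes fell by small amounts. Of 26 measured members 12 fell and 0 rose, at a median of -0.25. The count was 6 without replicate 4 of 24 h, 7 without replicate 4 of 48 h and 1 in the 7 libraries with more epidermal transcript, where the median was also -0.25. Hmgcs1, an early enzyme of the pathway, had 226, 192, 191, 194 and 187 CPM at 24 h and 162, 164, 169, 161 and 157 CPM at 48 h, 1.22-fold lower with no overlap (adjusted p = 0.00758). Fdft1, the first enzyme committed to sterols, was 1.30-fold lower. Srebf2, the transcription factor of the pathway, had 283 and 262 CPM and was not called. Of 30 glycolysis and hypoxia genes 0 were called by edgeR, where 4 had an unadjusted p below 0.05, and 2 rose with DESeq2. With edgeR 1 rose without replicate 1 of 24 h or replicate 3 of 48 h. The amino acid and endoplasmic reticulum stress list rose in 8 of 30 cases and in 2 in the 7 libraries with more epidermal transcript. Nupr1, a stress-induced chromatin protein, rose 2.43-fold, and Atf4, the central factor of that response, 1.29-fold with overlapping groups. Of 15 mitochondrial transcripts 2 fell, beside 3.02% of all genes that fell. These were the ribosomal RNAs mt-Rnr1 and mt-Rnr2, by 0.43 and 0.36 on the log2 scale. The count was 1 with all 45 libraries in 1 fit and 0 in the 7 libraries with more epidermal transcript.

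Several of the most significant changes lay outside these lists. Gas6, a secreted ligand of the TAM receptor kinases, had 32.1, 35.02, 35.7, 33.8 and 32.998 CPM at 24 h and 75.8, 82.0, 87.5, 86.7 and 94.4 CPM at 48 h, 2.51-fold higher with a small spread (adjusted p = 5.22e-08). Cmklr1, the chemerin receptor, rose 2.49-fold, Apoe, the lipid carrier, 2.02-fold and Sema3b, a semaphorin guidance ligand, 1.79-fold. Among the falls, Sox11, a transcription factor of progenitor cells, had 397, 374, 358, 376 and 389 CPM at 24 h and 242.1, 213, 251, 253 and 230 CPM at 48 h, 1.59-fold lower (adjusted p = 1.27e-05). Jarid2, a partner of the Polycomb repressive complex, was 1.46-fold lower and Tes and Fblim1, proteins of focal adhesions, 1.78- and 1.60-fold lower. Groups of all these genes did not overlap.

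**Figure D4:**
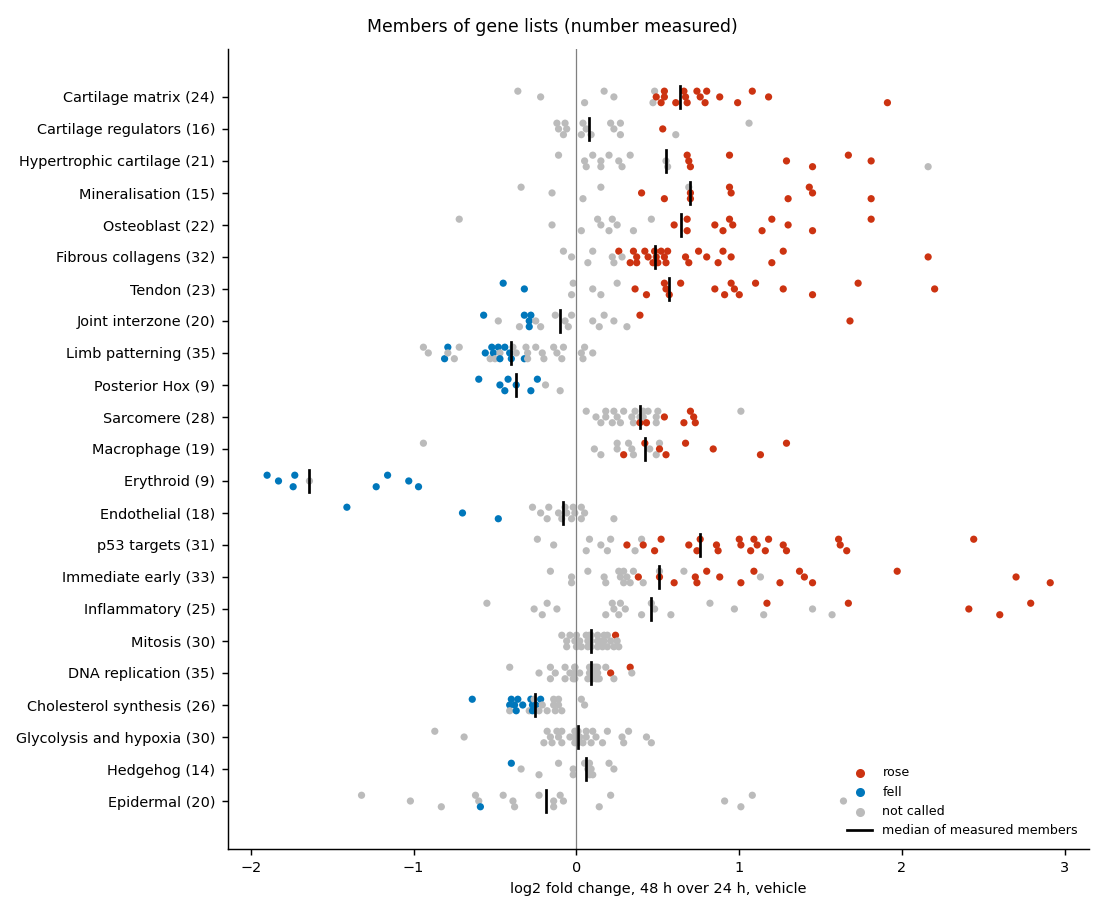
Log2 fold change of 48 h over 24 h in vehicle (horizontal axis) for the measured members of 23 gene lists (rows), with members that rose in red, that fell in blue and that were not called in grey, and the median as a black line. The medians of cartilage matrix, mineralisation, osteoblast and p53 target lists lie at 0.63, 0.70, 0.64 and 0.76. That of erythroid genes lies at -1.64, the value of Hba-a2, which was not called.

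The limb buds cultured with BPA give the same hours in libraries that are not shared with the vehicle groups. With 10 µM, 1297 of 17024 genes rose (7.62%) and 785 fell (4.61%), and with 50 µM 1195 of 16706 rose (7.15%) and 713 fell (4.27%). Of the 921 genes that rose in vehicle, 751 also rose with 10 µM (81.5% of the vehicle genes and 57.9% of those that rose with 10 µM), and 917 had the same sign. With 50 µM 671 of 916 tested also rose (73.3%, and 56.2% of those that rose with 50 µM). Of the genes that fell in vehicle, 359 fell with 10 µM (70.5%) and 322 with 50 µM (63.6%). None of them was called in the other direction at either dose.

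Differences from vehicle in the change over time were tested gene by gene. The interaction term called 0 of 18083 genes for 10 µM and 0 of 17852 for 50 µM with edgeR, where 360 and 585 genes had an unadjusted p below 0.05, and DESeq2 called 0 in both. A p that misses the threshold does not show that the changes were alike. Col10a1 had log2 fold changes of 1.67 in vehicle, 1.34 with 10 µM and 3.21 with 50 µM, and Ibsp 1.81, 1.54 and 2.66. Eda2r had 2.44, 2.39 and 2.23, Arc 2.91, 2.64 and 2.95, and Hbb-bt -1.90, -1.96 and -1.75. The sarcomere list, with a median of 0.39 in vehicle and 7 of 28 that rose, had a median of 0.48 and 12 that rose with 10 µM, and a median of -0.07 and 1 that rose with 50 µM. For cholesterol genes the medians were -0.25, -0.12 and -0.12, with 12, 4 and 4 that fell. The mitosis list had 1 member that rose in vehicle, 10 with 10 µM and 11 with 50 µM, at medians of 0.09, 0.18 and 0.25.

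**Figure D5:**
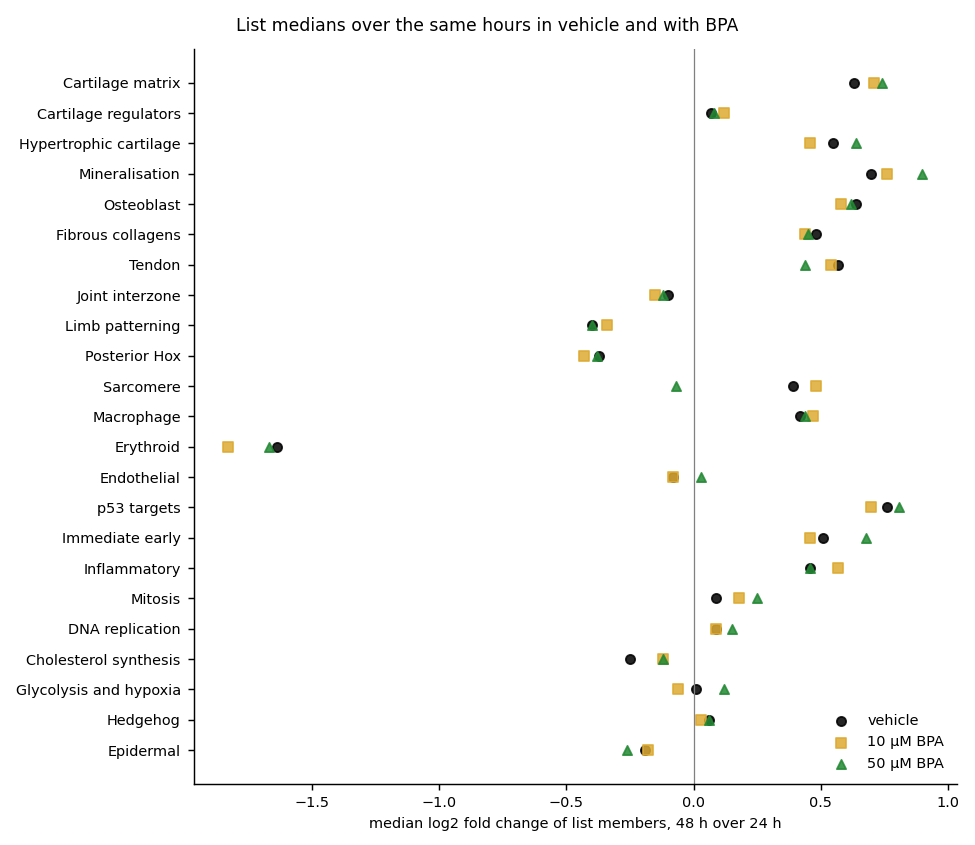
Median log2 fold change of 48 h over 24 h of the measured members (horizontal axis) of 23 gene lists (rows), in vehicle (black circles), with 10 µM BPA (yellow squares) and with 50 µM BPA (green triangles). For most lists the 3 symbols lie close together, and for the sarcomere list they lie at 0.39, 0.48 and -0.07.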

How the data were processed

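Poly-T selected messenger RNA was sequenced, per the labels' protocols. CASAVA 1.8, STAR 2.5, HTSeq 0.6.1, DESeq2 2 and mm10 are named without settings, per the submitters' processing notes. The strand setting of the counting was not found in these sources, and reads of antisense or overlapping genes cannot be told apart. The deposited counts are whole reads per gene (9 tables, 45 libraries, 30839 genes in the table of this comparison). The deposited FPKM scale counts by gene length and depth, and the authors' log2 fold changes and their p-values, raw and adjusted, come with each table, per the file headers. Titles gave the groups, although the treatment text names 3 h for every sample.

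Each comparison between times was fitted on its 10 libraries with edgeR 4.0.16 (R 4.3.3; quasi-likelihood test, TMM scaling, minimum count 10, minimum total 15, Benjamini-Hochberg adjustment over all tested genes), after the script was tested on simulated data. The difference between BPA and vehicle is an interaction term over 20 libraries. The SE was taken as the size of the log2 fold change over the root of the F statistic. Summed marker shares were compared by exact permutation over 252 splits. Alternatives were DESeq2 1.42.0, other scalings and filters, a minimum fold of 1.5, all 45 libraries in 1 fit, a replicate block, an epidermal covariate and each library left out. A fit without the 3 libraries of low epidermal content was chosen after seeing the data. The members and the 41 lists were chosen with earlier results of these data known. Genes were named from the 20 largest rises and falls and the 10 of smallest p each way (protein coding, groups that do not overlap, mean count from 50 up), from 6 called and 3 uncalled members per list, and from a fixed set, and those printed were picked with values in view. PCR reads are not independent molecules.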

Additional observations from a re-analysis of the deposited data

Results flagged for a closer look

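In 18 of 312 groups of 5 libraries (the genes named in the text and 13 marker lists, at each time), the highest or lowest library lay far from the other 4 for the range of the group. Chance flags about 1 in 20 groups, which is 15.6 of 312, but these groups come from the same 10 libraries and are not independent. Of the flags, 8 were for replicate 1 of 24 h as the highest library and 1 for it as the lowest. Replicate 1 of 24 h was highest for Arc at 6.20 CPM, Egr1 at 115.5 CPM, Dusp5 at 6.05 CPM, Cyp26a1 at 2.82 CPM, Hmgcs1 at 226 CPM, Ifi27 at 20.07 CPM, Mgp at 127.7 CPM and Mmp13 at 1.82 CPM, and lowest for Hoxa13 at 58.2 CPM. Replicate 2 of 24 h was highest for Acan at 526 CPM, for the cartilage matrix list at 1.56% of counts, for the tendon list at 0.31% of counts and for mt-Rnr2 at 590.2 CPM. Replicate 3 of 24 h was highest for S100b at 21.9 CPM. At 48 h, replicate 2 was highest for Fos at 64.3 CPM and Zfp36 at 35.95 CPM, and replicate 5 for Ccng1 at 244.7 CPM and Tgfb2 at 153 CPM. Of the genes named here that were called, Fos lost its call in 7 of the 10 fits without a library, and Arc, Egr1, Acan, Ccng1, Mgp, Hmgcs1, Hoxa13, Cyp26a1, Ifi27, S100b, Tgfb2 and mt-Rnr2 kept theirs in each.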

How the results depend on the processing

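Of the 106 named genes that rose or fell, 103 stayed past the threshold with DESeq2, both other scalings, both other filters, all 45 libraries in 1 fit and the epidermal covariate, 97 did so in all 10 fits that leave out a library, 78 without the 3 libraries of low epidermal content and 39 against a minimum fold of 1.5. The test against that minimum fold called 70 genes that rose and 10 that fell (44 in the lists), by its own construction. In it 0 patterning, Hox or joint interzone genes fell. In the cartilage matrix and mineralisation lists 1 gene each rose, and 4 fibrous collagen genes rose. It kept more calls among p53 targets (10 rose), tendon genes (7 rose) and erythroid genes (6 fell). Without those 3 libraries 377 rose and 106 fell (141 in the lists), and the cause was not tested. Leaving out 1 library gave 718 to 961 genes that rose and 326 to 580 that fell, the lowest counts of fallen genes being 326 without replicate 4 of 24 h and 336 without replicate 2 of 48 h. With the replicate number as a block 1054 rose and 523 fell in vehicle, the sarcomere genes that rose were 19 in place of 7 and the patterning genes that fell 18 in place of 11, and 7 genes differed between 50 µM BPA and vehicle (1 higher, 6 lower) in place of 0. The numbers were not taken to pair libraries: deviations of same-numbered vehicle libraries correlated at 0.30, -0.04, 0.04, 0.38 and 0.05, and not every library correlated best with its own number. Depth limits genes near 1 CPM.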
